A study of Mus musculus with 8 samples.

Results

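The expression of 10 genes that mark the tuft cell was followed through RNA-seq libraries of sorted mouse Paneth cells: Pou2f3, Dclk1, Avil, Trpm5, Plcb2, Alox5, Alox5ap, Ptgs1, Hpgds and Il17rb. They were chosen by name as 10 of the 55414 genes in the deposited table of raw counts, with their counts in view, so their high level in 1 mouse is given as a description. The study sorted Paneth cells by flow cytometry out of the small intestine, each C57BL/6J mouse contributing 1 library. In the control group 4 mice received standard chow, and in the zinc deficient group 4 mice received zinc depleted chow, freely available for 7 weeks. All 8 mice carried the same genotype and no transgene or other treatment was named in the labels. Sex and age were not given in the labels.

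Tuft cells are rare chemosensory epithelial cells of the gut, whose development depends on the transcription factor Pou2f3. They sense luminal compounds through the machinery of taste cells: receptors act on the phospholipase Plcb2, calcium is released from stores, and the cation channel Trpm5 opens and depolarises the cell. They make leukotrienes and prostaglandins through Alox5, Alox5ap, Ptgs1 and Hpgds, and release IL-25 during helminth infection, which starts a type 2 immune response. Paneth cells sit at the crypt base, secrete lysozyme and α-defensins, and are not known for these genes.

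The libraries held 8557690 to 12648005 counts, so 3 counts corresponded to between 0.237 and 0.351 counts per 1000000 (CPM). The 8 Paneth cell markers examined (Lyz1, Defa24, Defa30, Itln1, Mmp7, Ang4, Mptx2 and Pnliprp2) together took 464974 to 610166 CPM. Tuft cell genes were also counted in every library, and 1 library stood apart for them. That was zinc deficient replicate 3, whose 11465054 counts lay within the range of the others, and each diet comparison is therefore given with and without it. RNA of a sorted population was measured. More tuft cells, more tuft cell RNA per cell, and RNA of these genes from other cells, Paneth cells among them, cannot be told apart.

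The summed level of the 10 genes was 63.2, 60.6, 95.6 and 57.6 CPM in control replicates 1 to 4. In zinc deficient replicates 1 to 4 it was 48.2, 17.0, 427.4 and 61.4 CPM. Zinc deficient replicate 3 thus lay 4.47-fold above the next highest mouse, control replicate 3, and 25.2-fold above zinc deficient replicate 2, the lowest. Even there the 10 genes made up 0.0427% of all counts, against 0.0017% in zinc deficient replicate 2. With effective library sizes from the trimmed mean of M values (TMM) the sum was 390.2 CPM in zinc deficient replicate 3 and 23.6 to 103.0 CPM in the other 7 mice. Zinc deficient replicate 3 was the highest mouse for 10 of 10 genes, and zinc deficient replicate 2 the lowest for 8 of 10, on both scales.

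**Figure D1:**
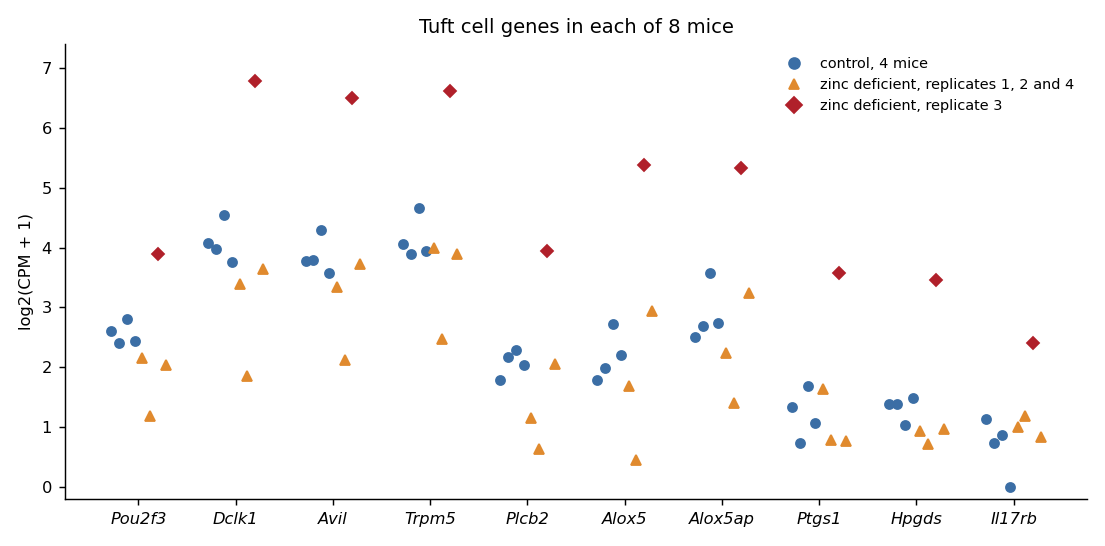
Level, as log2(CPM + 1), of the 10 tuft cell genes in each of the 8 mice, 1 point per mouse: controls (circles), zinc deficient replicates 1, 2 and 4 (triangles) and zinc deficient replicate 3 (diamonds). Zinc deficient replicate 3 is the highest point for every gene, from 4.27 CPM for Il17rb to 108.9 CPM for Dclk1.

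Of the identity genes, Pou2f3 (ENSMUSG00000032015, GRCm39 chromosome 9, 43035228 to 43121666, minus strand, 13 exons) encodes the POU domain factor that specifies the lineage. Its level was 5.07, 4.28, 5.96 and 4.41 CPM in the controls (mean 4.93 ± 0.77, SD, n = 4). In the zinc deficient mice it was 3.43, 1.27, 13.9 and 3.08 CPM. Zinc deficient replicate 3 was high and the other 3 zinc deficient mice lay below every control. Its excess was the smallest of the 10 genes, 3.24-fold over the median of the other 7 mice and 2.33-fold over the highest of them.

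Dclk1 (ENSMUSG00000027797, chromosome 3, 55149618 to 55446493, plus strand, 17 exons) encodes a microtubule-associated kinase widely used to stain tuft cells. It was at 15.9, 14.7, 22.3 and 12.5 CPM in the controls (mean 16.4 ± 4.21, SD, n = 4). The zinc deficient mice gave 9.47, 2.63, 108.9 and 11.5 CPM, from 29 counts in replicate 2 to 1249 counts in replicate 3. As for Pou2f3, 3 zinc deficient mice lay below all controls and replicate 3 lay far above them, 8.70-fold over the median of the other 7 mice.

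Avil (ENSMUSG00000025432, chromosome 10, 126836578 to 126856863, plus strand, 20 exons) encodes advillin, an actin-binding protein of the apical tuft. The controls gave 12.7, 12.8, 18.7 and 10.9 CPM (mean 13.8 ± 3.39, SD, n = 4), and the zinc deficient mice 9.17, 3.36, 88.9 and 12.3 CPM. Without replicate 3 the groups overlapped, zinc deficient replicate 4 lying within the range of the controls. Replicate 3 stood 4.75-fold above the next mouse.

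The promoter of Avil is shown because it holds 2 copies of a short form of the octamer, the sequence bound by the family of factors that Pou2f3 belongs to. The 250 bases upstream of its canonical start (GENCODE release M39), GRCm39 chr10:126836328-126836577 on the plus strand, were searched for ATGCAAA or its reverse complement TTTGCAT. The matches are in capitals, 5′ to 3′ on the gene's strand.
Avil: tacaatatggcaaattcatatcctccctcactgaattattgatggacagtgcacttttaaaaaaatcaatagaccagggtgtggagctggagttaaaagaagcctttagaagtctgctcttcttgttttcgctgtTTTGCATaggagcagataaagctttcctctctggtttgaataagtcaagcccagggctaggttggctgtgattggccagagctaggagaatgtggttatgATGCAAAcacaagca
The first base of each match lay at -115 and -15, counted from the start. In windows that also held the first 50 transcribed bases, 4.55% of 21757 protein-coding genes had at least 1 such match, and the windows of the other tuft cell genes are not described here. A match is a string of letters and not a measured binding site.

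Trpm5 and Plcb2 represent the taste pathway. Trpm5 (ENSMUSG00000009246, chromosome 7, 142622890 to 142648379, minus strand, 25 exons) encodes the calcium-activated cation channel at its end. It was at 15.6, 13.9, 24.2 and 14.4 CPM in the controls (mean 17.0 ± 4.83, SD, n = 4) and at 14.9, 4.54, 96.6 and 13.8 CPM in the zinc deficient mice. Zinc deficient replicates 1 and 4 lay close to the controls, replicate 2 below and replicate 3 above, by 6.69-fold over the median of the other 7 mice.

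Plcb2 (ENSMUSG00000040061, chromosome 2, 118537979 to 118559111, minus strand, 32 exons) encodes the phospholipase upstream of the channel. The controls gave 2.45, 3.52, 3.86 and 3.11 CPM (mean 3.23 ± 0.60, SD, n = 4), and the zinc deficient mice 1.21, 0.544, 14.3 and 3.16 CPM. Zinc deficient replicate 3 was 3.71-fold above the highest of the others, and zinc deficient replicate 4 was within the controls.

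The leukotriene genes Alox5 and Alox5ap encode 5-lipoxygenase and the membrane protein that presents arachidonic acid to it. Alox5 (ENSMUSG00000025701, chromosome 6, 116387032 to 116438139, minus strand, 14 exons) was at 2.45, 2.95, 5.61 and 3.61 CPM in the controls (mean 3.65 ± 1.39, SD, n = 4). The zinc deficient mice gave 2.22, 0.363, 40.5 and 6.64 CPM. Here replicate 3 had the largest excess of the 10 genes, 13.7-fold over the median of the other 7 mice, and zinc deficient replicate 4 came next, above every control.

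Alox5ap (ENSMUSG00000060063, chromosome 5, 149196003 to 149227762, plus strand, 6 exons) was at 4.65, 5.42, 10.9 and 5.71 CPM in the controls (mean 6.66 ± 2.84, SD, n = 4). It was at 3.73, 1.63, 39.2 and 8.46 CPM in the zinc deficient mice. The excess of replicate 3 over the median of the other 7 mice was 7.23-fold, and zinc deficient replicate 4 lay inside the control range.

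The prostaglandin genes Ptgs1 and Hpgds were counted less often. Ptgs1 (ENSMUSG00000047250, chromosome 2, 36120438 to 36142287, plus strand, 11 exons), cyclooxygenase-1, was at 1.52, 0.666, 2.22 and 1.10 CPM in the controls (mean 1.38 ± 0.66, SD, n = 4). It was at 2.12, 0.726, 10.9 and 0.712 CPM in the zinc deficient mice. Aside from replicate 3, 9.89-fold over the median of the others, the ranges of the 2 diets overlapped.

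Hpgds (ENSMUSG00000029919, chromosome 6, 65094001 to 65121983, minus strand, 6 exons) encodes the hematopoietic prostaglandin D synthase. Its values were 1.61, 1.62, 1.05 and 1.80 CPM in the controls (mean 1.52 ± 0.33, SD, n = 4), and 0.907, 0.635, 10.03 and 0.949 CPM in the zinc deficient mice. Replicate 3 was 5.56-fold above the highest of the others, and the other 3 zinc deficient mice lay just below the lowest control.

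Il17rb (ENSMUSG00000015966, chromosome 14, 29716082 to 29730956, minus strand, 11 exons) encodes a subunit of the receptor for IL-25. It had the lowest control level of the 10 per kilobase of mRNA, and was at 1.18, 0.666, 0.818 and 0 CPM in the controls. No read in control replicate 4 allows a level of up to 0.301 CPM there, for counting error. The zinc deficient mice gave 1.01, 1.27, 4.27 and 0.791 CPM, with replicate 3 again highest. It was 3.37-fold above the next mouse on CPM and 2.21-fold on TMM-scaled CPM. On the opposite strand 38.8% of the exon bases of Il17rb overlap exons of Actr8, which had 782 counts over the 8 libraries, and the strand setting used in counting was not given in the sources used here.

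Per kilobase of the canonical mRNA the control levels ran from Avil (4.54 CPM per kb) and Trpm5 (4.13) through Alox5ap (2.39), Dclk1 (2.02), Pou2f3 (1.95) and Alox5 (1.29) to Plcb2 (0.604), Ptgs1 (0.481), Hpgds (0.395) and Il17rb (0.159). The control mice of neighbours in this order overlapped for 8 of 9 pairs, all but Alox5 and Plcb2. In zinc deficient replicate 3 Avil (29.3 CPM per kb) and Trpm5 (23.4) were again first, and Alox5 (14.3) followed, ahead of Alox5ap (14.0) and Dclk1 (13.4).

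The composition of the tuft cell counts was compared between mice, to see whether the 10 genes moved in proportion. Avil took 19.0% to 21.2% of the counts of the 10 genes in every mouse, although their number ran from 187 in zinc deficient replicate 2 to 4900 in zinc deficient replicate 3. Pou2f3 took 3.25% in zinc deficient replicate 3, the lowest share of any mouse, against 5.02% to 8.03% in the other 7. Alox5 took 9.47% there and 10.8% in zinc deficient replicate 4, against 2.14% to 6.26% in the other 6 mice. Dclk1 took 25.5% in zinc deficient replicate 3, against 15.5% to 25.2% in the others, and Trpm5 22.6%, within 22.5% to 31.0%. Il17rb had its highest share, 7.49%, in zinc deficient replicate 2.

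**Figure D2:**
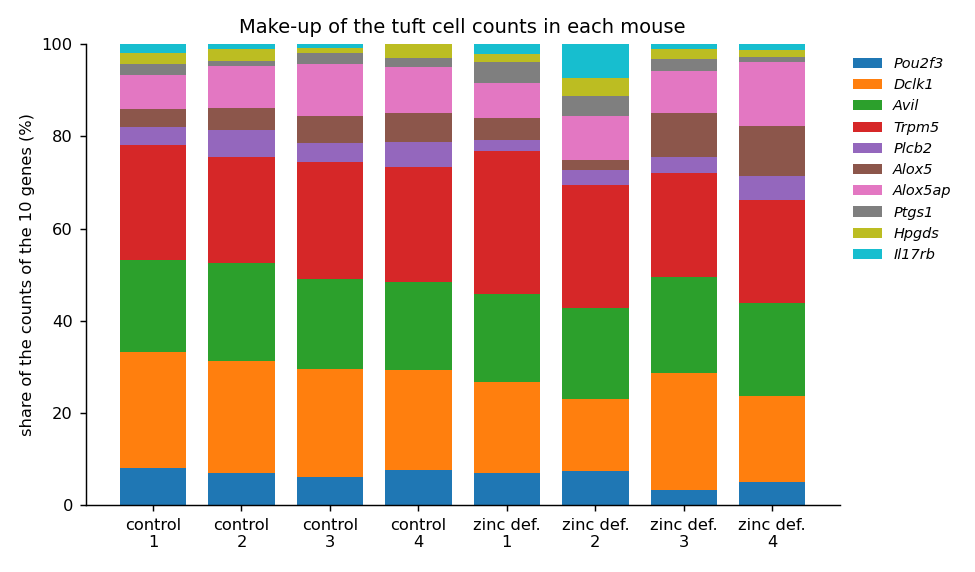
Share of each of the 10 genes in the counts of the 10 genes together (percent, stacked to 100) in each of the 8 mice. Avil keeps a share of 19.0% to 21.2% in every mouse, and Pou2f3 has its smallest share in zinc deficient replicate 3.

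The diets were compared over all genes in edgeR by its quasi-likelihood test, with p adjusted after Benjamini and Hochberg. Of 10911 genes tested 44 were called at an adjusted p under 0.05, which is 0.403%, with 16 higher (0.147%) and 28 lower (0.257%) in zinc deficient mice. All 10 tuft cell genes passed the filter on low counts and 0 of them were called; at an unadjusted p under 0.05 there was 1, Il17rb, against 10.5% of all genes tested. DESeq2's Wald test called 0 of the 9 to which it gave a p, Hpgds having none. The log2 fold change was positive for all 10, with a median of 1.14, whereas 49.3% of all genes tested were positive and their median was -0.01.

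Single genes showed how wide the errors were. Alox5 had the largest difference, a log2 fold change of 1.88 ± 1.19 (SE, adjusted p = 0.673), and Pou2f3 the smallest, 0.33 ± 0.49 (adjusted p = 0.882). Il17rb, at 1.77 ± 0.63, had the lowest adjusted p of the 10, 0.285, followed by Ptgs1 with 1.56 ± 0.77 (adjusted p = 0.520). For Dclk1, Trpm5 and Avil the log2 fold changes were 1.12 ± 1.03, 1.05 ± 0.86 and 1.16 ± 0.93. Those of Alox5ap, Hpgds and Plcb2 were 1.12 ± 0.94, 1.21 ± 0.71 and 0.73 ± 0.82, and none of these 6 had an adjusted p under 0.605.

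Without zinc deficient replicate 3 the direction turned for most of the 10 genes. The log2 fold change was negative for 7 of 10, from -0.16 ± 0.49 for Alox5ap to -0.68 ± 0.37 for Dclk1, and positive for Il17rb (1.13 ± 0.68), Ptgs1 (0.17 ± 0.57) and Alox5 (0.13 ± 0.65). The median was -0.31, against -0.01 for all genes tested, of which 48.9% were positive. None of the 10 was called, with a lowest adjusted p of 0.514 for Dclk1, while 0.326% of 11028 genes were called. With library sizes alone in place of TMM, which moves the median of all genes to -0.49, Ptgs1 and Alox5 were negative as well, 9 of 10.

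Ranges of the diets, likewise, depended on the scale. Over all 8 mice 0 of the 10 genes had CPM values that did not overlap between diets, against 6.83% of all genes tested. Without zinc deficient replicate 3 the values did not overlap for Dclk1, Pou2f3 and Hpgds, all lower in zinc deficient mice, against 20.1% of all genes tested that did not overlap and 19.6% that did so with lower values. On TMM-scaled CPM these 3 overlapped, and 1 of the 10 did not, Il17rb, higher in zinc deficient mice. Of all genes tested 6.09% did not overlap on this scale, and 10.9% without replicate 3.

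**Figure D3:**
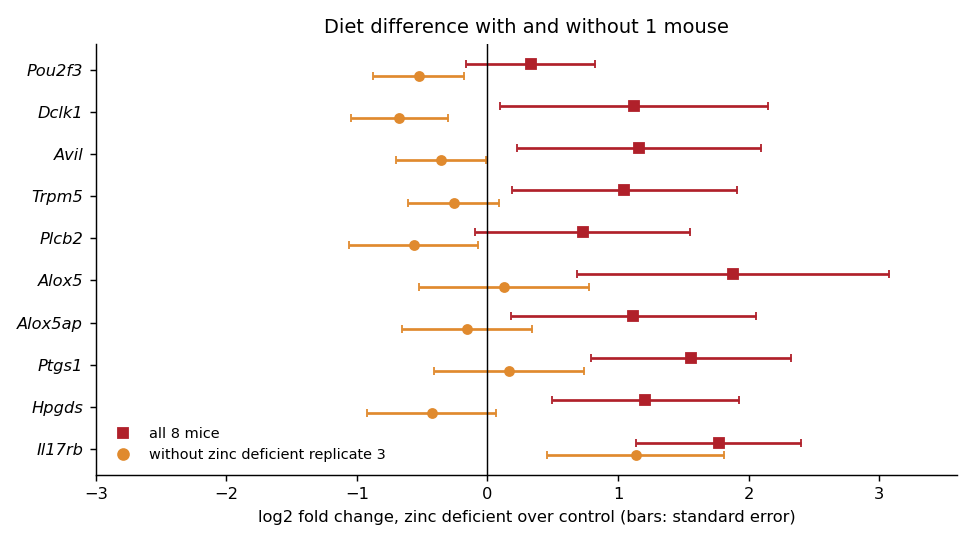
Log2 fold change, zinc deficient over control, of each of the 10 genes from edgeR's quasi-likelihood fit, bars giving the standard error, with all 8 mice (squares) and without zinc deficient replicate 3 (circles). All 10 squares lie above 0 and 7 of the 10 circles below it.

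Wider lists of tuft cell genes were read from the same fit, 81 genes beside the 10, of which 50 passed the filter. None was called in either direction with all 8 mice (lowest adjusted p = 0.386), 5 of 50 had an unadjusted p under 0.05, against 10.5% of all genes tested, and 36 of 50 had a positive log2 fold change, against 49.3%, with a median of 0.35. Without zinc deficient replicate 3 none was called either, and 19 of 50 were positive, against 48.9% of all genes tested, with a median of -0.09.

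Among the wider tuft cell lists, that of 30 other identity genes had the largest excess in replicate 3. In zinc deficient replicate 3 the 23 genes tested had a median ratio of 6.41 to the median of the other 7 mice, and 21 of them were highest there. On CPM, 12 of 23 were at least 3-fold above every other mouse, against 9 of the 10 and 0.357% of all genes tested. On TMM-scaled CPM the excess of Il17rb, which is among the 9, was 2.21-fold in zinc deficient replicate 3. Kctd12, among the 3 of the list with the highest mean CPM, was at 235.5 CPM there and at 10.4 to 62.6 CPM in the others. Tmem176b and Tmem176a, the other 2, differed less, with 119.4 and 79.4 CPM against 65.1 to 103.3 and 34.2 to 52.5 CPM.

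Of 18 further taste signalling genes, 9 were tested and had a median ratio of 3.20. Of these, 4 exceeded every other mouse at least 3-fold: Plcg2, a phospholipase of immune receptor signalling, Rgs13 and Rgs2, which regulate G proteins, and Ffar3, a receptor for short-chain fatty acids. Trpm4, Itpr3 and Inpp5j, with the highest mean CPM of the list, had ratios of 1.04, 1.41 and 1.83. Trpm4 encodes a channel related to Trpm5, and Itpr3 the calcium release channel of the endoplasmic reticulum. Gnb3, Tas1r2, Tas2r108 and Tas2r143 had no count in any mouse, and Gnat3, which encodes the taste G protein gustducin, had 4 counts over all libraries.

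Most of the other eicosanoid genes lay nearer to the level of the other mice than the 4 chosen ones did. Of 20 listed, 12 were tested, with a median ratio of 1.24 in zinc deficient replicate 3, close to the 1.14 of all genes tested, and 0 of 12 were 3-fold above every other mouse. It was the highest mouse for 5 of the 12, Pla2g4a, Ltc4s, Mgst2, Mgst3 and Slco2a1, against 6.83% of all genes tested. Ltc4s, the leukotriene C4 synthase, had a ratio of 8.22, within the range of the 10 tuft cell genes, at 7.41 CPM and 2.88-fold above the highest of the others. Hpgd, which degrades prostaglandins, had the highest mean CPM of the list, with 123.1 CPM there and 89.6 to 167.3 CPM in the others. Mgst3 was at 53.7 CPM against 21.1 to 32.9 CPM, and Lta4h, which makes leukotriene B4, at 31.1 CPM against 11.8 to 39.8 CPM.

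For the circuit of IL-25 and IL-13, 13 genes were listed and 6 tested, with a median ratio of 1.28. Il13ra1, a subunit of the IL-13 receptor, was at 104.0 CPM in zinc deficient replicate 3 and at 28.3 to 58.6 CPM in the others. Stat6 and Il4ra, which carry the signal on, had ratios of 1.14 and 1.34. Il25 itself had 5 counts over all 8 libraries, and Il13, Il4, Il5, Il33, Areg and Il1rl1 had none.

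**Figure D4:**
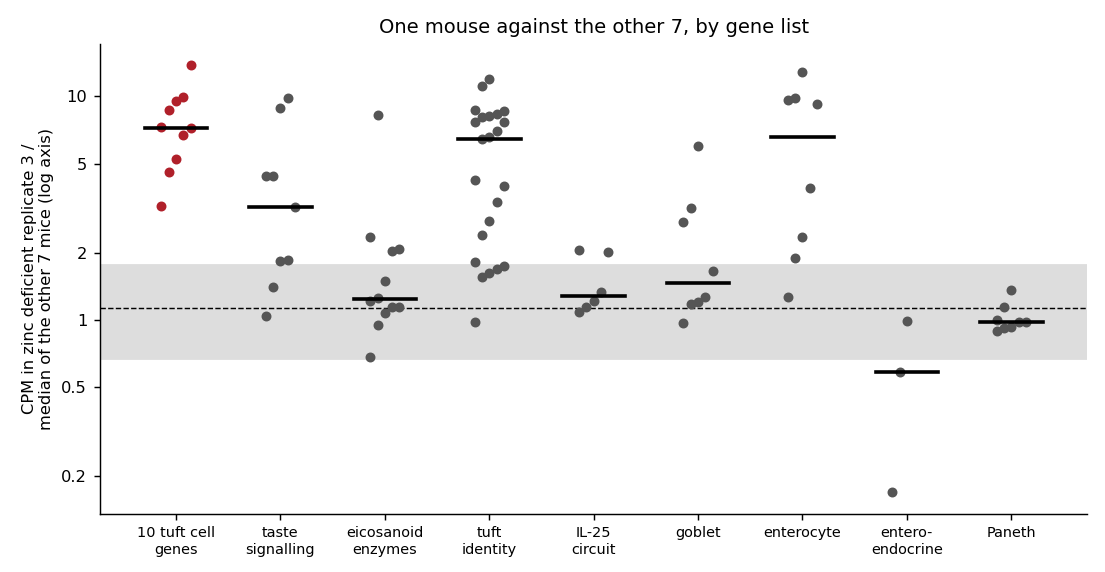
Ratio of the CPM in zinc deficient replicate 3 to the median of the other 7 mice (log axis), 1 point per tested gene, for the 10 tuft cell genes, the wider tuft cell lists and markers of other cell types, with bars at the list medians. The 10 genes lie between 3.24 and 13.7, while the dashed line gives the median over all genes tested, 1.14, and the grey band their 5th to 95th percentile, 0.668 to 1.76.

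Markers of other cell types were measured beside these values. In zinc deficient replicate 3 the Paneth cell markers summed to 524806 CPM, within the 464974 to 572913 CPM of the controls. In zinc deficient replicates 1, 2 and 4 they summed to 571291, 610166 and 576834 CPM, so replicate 3 was the lowest of its diet. Goblet cell markers (8 genes, led by Agr2, a protein disulfide isomerase) summed to 4242 CPM there, to 2116, 2498 and 4441 CPM in zinc deficient replicates 1, 2 and 4, and to 2663 to 3226 CPM in the controls. Agr2, Muc2 and Tff3 carried most of this sum, and 3 of the other goblet cell markers had larger ratios of replicate 3 to the median of the other 7 mice: Clca1 with 6.01, Zg16 with 3.15 and Fcgbp with 2.74. Clca1 was higher still in zinc deficient replicate 4, at 146.8 CPM against 114.8 CPM in zinc deficient replicate 3. Fcgbp was at 921.2 CPM there and at 82.9 to 509.7 CPM in the others, with a log2 fold change between diets of -0.19 (adjusted p = 0.961), and without replicate 3 it was called lower in zinc deficient mice (-1.36 ± 0.25, SE, adjusted p = 0.0219). Of the Paneth cell markers 1 was called without replicate 3, Mptx2, higher in zinc deficient mice (log2 fold change 1.65 ± 0.34, SE, adjusted p = 0.0475), and its adjusted p was 0.0712 with all 8 mice. None of the markers of other cell types was called with all 8 mice. Enterocyte markers (8 genes, led by the fatty acid binding protein Fabp2) summed to 171.5 CPM in zinc deficient replicate 3 and to 55.1 to 162.9 CPM in the controls, and their median ratio of replicate 3 to the other 7 mice, 6.56 over a range of 1.26 to 12.8, was close to that of the 10 tuft cell genes, 7.24. Replicate 3 was the highest mouse for 5 of the 8, and Fabp1 was at least 3-fold above every other mouse, whereas Apoa1 was at 36.4 CPM there and at 52.0 CPM in control replicate 3. The part of enterocyte RNA in the tuft cell levels was not tested. Enteroendocrine markers (10 genes, led by secretin, Sct) summed to 25.3 CPM in zinc deficient replicate 3. They summed to 29.9, 30.03 and 13.3 CPM in zinc deficient replicates 1, 2 and 4, and to 30.03 to 49.3 CPM in the controls.

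Alox5, Alox5ap, Ptgs1 and Hpgds are also expressed by mast and myeloid cells. Of 15 markers of those cells 10 had no count in any mouse, among them Cpa3, Mcpt1, Mcpt2, Csf1r and Adgre1, and the sum was 50.2 CPM in zinc deficient replicate 3 against 27.1 to 38.2 CPM in the other 7 mice. Lyz2, the myeloid lysozyme and a close paralog of the abundant Lyz1, between which counting can split reads, made up 48.2 CPM of it. On TMM-scaled CPM the sum of the 15 was 45.9 CPM in zinc deficient replicate 3, below the 52.0 CPM of zinc deficient replicate 2. Of 10 lymphoid markers 6 had no count in any mouse. Their sum was 2.88 CPM in zinc deficient replicate 3, of which Ptprc, the pan-leukocyte CD45, was 2.79 CPM, and 0 to 0.351 CPM in the other 7 mice. The part of these cells in the tuft cell levels was not tested.

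The genes most like the 10 in their pattern over the 8 mice were sought among the 10901 other genes tested, by Pearson's r of log2(CPM + 1) with the mean standardised profile of the 10. As the profile is dominated by zinc deficient replicate 3, r describes these mice and carries no test. Among the first 10 were Siglecf (r = 0.994), Sh2d6 (0.991), Irag2 (0.990), Inpp5d (0.986), Pou2af2 (0.981), Kctd12 (0.980), Ptpn6 (0.979), Fyb1 (0.978) and Sh2d7 (0.977), and of these 9 named genes all but Inpp5d were in the wider tuft cell lists. Siglecf, a sialic acid binding receptor, was at 19.2 CPM in zinc deficient replicate 3 against 0.454 to 3.27 CPM. Inpp5d, an inositol phosphatase of blood cells, was at 24.5 CPM against 0.272 to 4.21 CPM.

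Zinc deficient replicate 3 was then left out, a choice made after seeing the data. Of the first 10 genes, 4 remained among the first 10 over the other 7 mice: Kctd12 (r = 0.997, first), Sh2d6 (0.982), Sh2d7 (0.978) and Irag2 (0.973). These 4 were the only genes of the wider tuft cell lists among the first 10 over the 7 mice. Of the first 50, 10 were in those lists over the 7 mice, against 20 over all 8. The 10901 genes ranked held 50 genes of those lists. Within the 10 tuft cell genes Avil, Dclk1 and Trpm5 kept r of 0.994, 0.994 and 0.980 with their common profile over these 7 mice. Pou2f3 had 0.963, Alox5ap 0.896, Plcb2 0.878 and Alox5 0.851. The genes with the fewest counts had less, Hpgds 0.560, Ptgs1 0.498 and Il17rb -0.280. Each gene is part of the profile, and all points share the library and its depth.

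**Figure D5:**
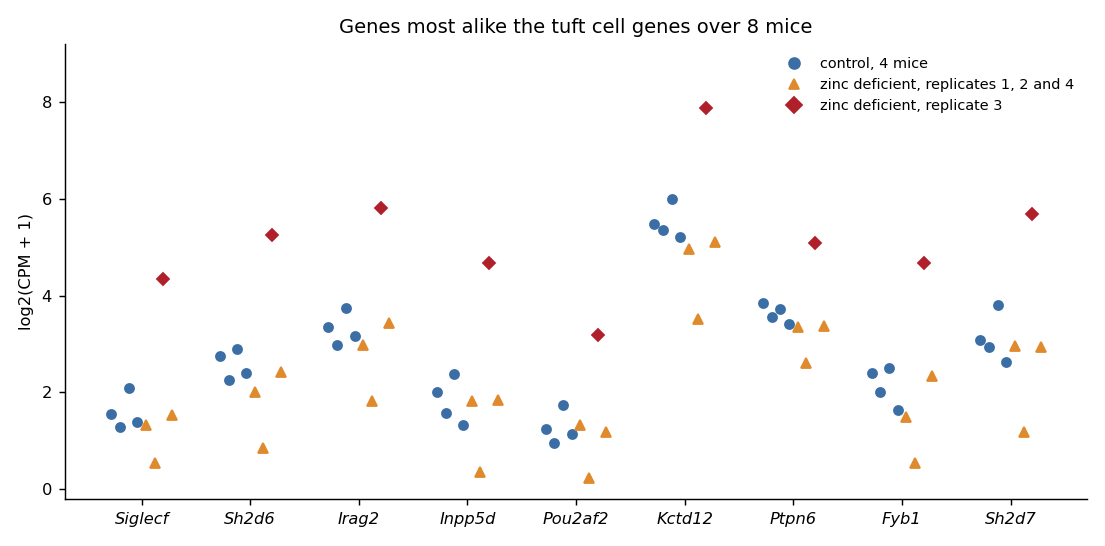
Level, as log2(CPM + 1), by mouse of 9 of the 10 genes most like the tuft cell genes: controls (circles), zinc deficient replicates 1, 2 and 4 (triangles) and zinc deficient replicate 3 (diamonds). Each of the 9 is highest in zinc deficient replicate 3, from 8.11 CPM for Pou2af2 to 235.5 CPM for Kctd12.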

How the data were processed

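RNA of flow-sorted small intestinal Paneth cells of 8 mice was sequenced from stranded mRNA libraries. The authors deposited raw counts per Ensembl gene, a table of 55414 genes. The submitters' processing notes name FastQC 0.12.0, STAR 2.7.0a, DESeq2 and mm39, and the counting program, its strand setting and its treatment of multimapping reads were not given in the sources used here. Of the gene IDs 54749 were found in GENCODE M39 (GRCm39) and 665 were not.

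Counts were tested in edgeR 4.0.16 (R 4.3.3, limma 3.58.1) with filterByExpr, TMM and the robust quasi-likelihood fit, over all 8 mice, at a Benjamini-Hochberg adjusted p of 0.05. Standard errors were derived from the test, as the absolute log2 fold change divided by the square root of its F statistic. DESeq2 1.42.0 and other settings were alternatives. CPM were counts divided by the library total, times 1000000, and the pseudocount for logs was 1. The fit was checked on simulated counts with 200 changed genes. It recovered 94% of the 4-fold and 61% of the 2-fold changes, and 4.91% of its calls were false. The simulation held no outlying mouse, so it does not cover the pattern of the 10 tuft cell genes. Named were all 10 tuft cell genes, in each wider list the called genes and the 3 with the highest mean CPM, in each marker list of another cell type the called genes and the one with the highest mean CPM, and the 10 genes most alike in pattern, of which 1 is not reported here. Other genes named, such as those with no count, 3-fold higher in 1 mouse or near that fold, were picked after their values were seen. The genes and lists were chosen with earlier results of these data known. Nothing in the labels says more of the replicates than their number, and intervals and limits cover counting error only.

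No pair of libraries was a duplicate (chi-square per degree of freedom 5.43 to 55.1 within diets). Same-numbered mice of the diets had correlations of their deviations from the group mean of 0.012 to 0.104. For the other pairs these ran from -0.188 to 0.168. The numbers were not used as pairs in the main test, and a fit with them as a block is given below.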

Additional observations from a re-analysis of the deposited data

Results flagged for a closer look

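In groups of 4 mice the gap between the extreme mouse and its neighbour, as a share of the group's range, was set against Dixon's 95% critical value for 4 samples. Of 42 groups examined 13 passed it. Chance passes about 1 in 20 groups that were picked without regard to their values. The 10 tuft cell genes were chosen with their counts in view, and the other lists with earlier results of these data known. All of them share their libraries, so this rate does not apply to any of the 42 groups, and their values are a description.

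Zinc deficient replicate 3 was the extreme mouse in 10 of the 13, always as the highest. For single genes its gap took 0.916 of the range for Dclk1, 0.887 for Trpm5, 0.862 for Ptgs1, 0.896 for Avil and 0.844 for Alox5. It took 0.967 for Hpgds and 0.862 for Il17rb. For sums over lists it took 0.892 for the 10 tuft cell genes, 0.862 for the other identity genes and 0.919 for the lymphoid markers, the last resting on Ptprc at 2.79 CPM.

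Control replicate 3 was the highest of the controls in the remaining 3, with a gap of 0.8291 of the range for Trpm5, 0.8291 for Alox5ap and 0.854 for the summed level of the 10 genes. That sum was 95.6 CPM there, against 57.6 to 63.2 CPM in the other 3 controls.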

How the results depend on the processing

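The 44 genes called between diets became 11 with library sizes alone, 251 without a filter, 134 in DESeq2's Wald test and 25 without the robust option. They became 8 to 36 when each mouse was left out in turn, 8 without control replicate 2 or control replicate 4, and, among the zinc deficient mice, 13, 17 and 26 when replicates 2, 4 and 1 were left out. None of the 10 tuft cell genes was called under any alternative that gave it a p (DESeq2 gave none for Hpgds). Of the wider lists only Pla2g4c was, without a filter, 1 of 70 genes against 251 of 18839 over all genes. Pla2g4c was at 3.32 CPM in zinc deficient replicate 4 and at 0 to 0.705 CPM in the other mice. The log2 ratio of the summed level of the 10 genes between diets, 1.00, ranged from -0.71, without zinc deficient replicate 3, to 1.37. Leaving out each mouse in turn, the log2 fold change ranged from -0.68 to 1.49 for Dclk1, from -0.26 to 1.39 for Trpm5, from -0.53 to 0.61 for Pou2f3, from -0.36 to 1.51 for Avil, from -0.16 to 1.57 for Alox5ap, from -0.43 to 1.5 for Hpgds and from -0.57 to 1.07 for Plcb2, negative only without zinc deficient replicate 3. It stayed positive for Ptgs1, Alox5 and Il17rb. With the replicate number as a block 53 genes were called, 36 of them shared with the 44, and 0 of the 10 genes, whose log2 fold changes became 0.22 for Dclk1, 0.49 for Trpm5, 0.02 for Pou2f3, 0.45 for Avil, 0.97 for Alox5, 0.58 for Alox5ap, 0.45 for Hpgds, 0.12 for Plcb2, 1.05 for Ptgs1 and 1.73 for Il17rb. Control replicates 1, 2 and 4 deviated most like the zinc deficient mouse of the same number, with r of 0.104, 0.078 and 0.083. The next highest r was 0.094 for control replicate 1, 0.008 for control replicate 2 and 0.069 for control replicate 4, so the lead was narrow for control replicates 1 and 4. Control replicate 3 deviated most like zinc deficient replicate 4 (r = 0.168, against 0.012 with zinc deficient replicate 3). The labels do not say whether the numbers mark pairs. At a 2-fold in place of a 3-fold excess of zinc deficient replicate 3 over every other mouse, which was chosen after seeing the data, 10 of the 10 genes and 70 of all genes passed, and at 5-fold 2 and 10. These counts are on CPM. On TMM-scaled CPM the excess of the 10 genes ran from 1.97-fold for Pou2f3 to 4.81-fold for Hpgds. Levels of Ptgs1, Hpgds and Il17rb outside zinc deficient replicate 3 rested on 0 to 21 counts per mouse, which limits what can be told apart at this depth.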

Other observations

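Beside the genes of the lists, 13 genes in no list were at least 3-fold higher in zinc deficient replicate 3 than in every other mouse, named here after their values were seen. They included Inpp5d, Pik3cg and Pik3r5 of phosphoinositide signalling, the adenylate cyclase Adcy5, the calcium channel subunit Cacna2d2, the chemokine receptor Ackr4 and the glycogen phosphorylase Pygl. Pygl was at 35.8 CPM there and at 0.907 to 8.998 CPM in the other 7 mice, and Smpx at 6.80 CPM against 0.0907 to 2.21 CPM. The same excess over every other mouse was met by 10 genes in control replicate 1, by 1 each in zinc deficient replicates 1 and 4, and by 0 in each of the remaining 4 mice, against 39 in zinc deficient replicate 3.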
